A study of Rattus norvegicus with 20 samples.

Results

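The genes described here are 10 genes of the circadian clock and its outputs in rat liver, namely Per1, Per2, Per3, Dbp, Hlf, Noct, Usp2, Nr1d2, Npas2 and Nfil3. They were found by their gene symbol in the platform annotation, which pairs them with 18 of the 31042 probe sets on the arrays. A probe set was kept if 5 or more arrays read over 4 on the log2 scale; 14 of the 18 were, and each of the 10 genes kept 1 or more, among 7837 genes in all. Per2 and Noct had been noted beforehand for their low values in the D3T arrays. The D3T values of all 10 genes against control are therefore given as a description, with no p, and nothing is read from their count. The control arrays also belong to that earlier contrast. The difference between OLT and BNF is taken from other arrays, although its SE rests on the spread within all 4 diets.

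The livers came from 20 female Sprague Dawley rats, 1 array per rat and 5 rats per diet, after 24 days of feeding. D3T rats received 3H-1,2-dithiole-3-thione at 600 mg per kg of diet. OLT rats received oltipraz, which is D3T with a methyl and a pyrazinyl group added to the ring, at 500 mg per kg. BNF rats were given 1650 mg per kg of 5,6-benzoflavone, which activates the aryl hydrocarbon receptor, and control rats ate the Harlan Teklad mash that all diets shared, with nothing added. D3T and OLT are known as activators of the Nrf2 pathway. The rats' age and the hour at which each liver was taken are not given in the sources used here, so that diet and collection time cannot be told apart. Values are log2 expression summaries of whole liver RNA, in which fewer cells of a type and less RNA per cell cannot be told apart. The number of arrays limits the precision.

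In the mammalian clock, BMAL1 pairs with CLOCK or with its paralogue NPAS2, binds E-boxes and switches on the Per, Cry, Nr1d1, Nr1d2 and Dbp genes. PER and CRY proteins feed back to block that pair, and the nuclear receptors encoded by Nr1d1 and Nr1d2 repress Bmal1, Npas2 and Nfil3. A further arm acts at D-boxes, where DBP, HLF and TEF activate and NFIL3 represses. Noct, a phosphatase of NADP(H) related to deadenylases, and Usp2, a deubiquitinase, are among the outputs that cycle in liver. Transcripts of these genes are known to swing over the day in rodent liver, the BMAL1 targets and the genes that Nr1d1 and Nr1d2 repress peaking at different hours.

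Some of these elements can be read in the promoter windows of the genes. Windows of 300 bases, from 250 bases before to 50 bases after the annotated start, were taken from RefSeq on build GRCr8 for 9 of the 10 genes, all but Hlf. The windows of Per2 and of Noct and Usp2, whose levels followed Per2 most closely within diets, are shown 5′ to 3′ on the gene's strand. Capitals mark matches to an E′-box, a D-box or a nuclear receptor half-site. They lie at chr9:99496944-99497243 (minus strand), chr2:137421824-137422123 (plus strand) and chr8:53310620-53310919 (plus strand).
Per2: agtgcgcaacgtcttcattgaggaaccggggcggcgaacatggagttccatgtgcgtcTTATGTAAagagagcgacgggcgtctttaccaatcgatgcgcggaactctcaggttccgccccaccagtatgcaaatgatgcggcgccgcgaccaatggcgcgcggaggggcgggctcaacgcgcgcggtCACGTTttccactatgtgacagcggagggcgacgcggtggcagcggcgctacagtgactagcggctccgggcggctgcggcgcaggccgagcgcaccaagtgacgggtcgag
Noct: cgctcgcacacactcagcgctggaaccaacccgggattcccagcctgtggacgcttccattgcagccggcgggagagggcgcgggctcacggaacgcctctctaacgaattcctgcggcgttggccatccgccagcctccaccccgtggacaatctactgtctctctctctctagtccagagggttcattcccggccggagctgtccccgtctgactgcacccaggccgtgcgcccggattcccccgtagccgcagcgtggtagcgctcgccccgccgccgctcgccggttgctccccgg
Usp2: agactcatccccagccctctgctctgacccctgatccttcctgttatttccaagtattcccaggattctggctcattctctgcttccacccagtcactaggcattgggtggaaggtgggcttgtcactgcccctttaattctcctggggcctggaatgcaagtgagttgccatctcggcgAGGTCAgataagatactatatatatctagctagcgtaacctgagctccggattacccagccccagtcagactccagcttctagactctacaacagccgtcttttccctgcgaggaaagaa

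The Per2 window held a D-box match, TTATGTAA, that begins at position -192 from the start, and an E′-box match, CACGTT, that begins at -62. All patterns were searched on both strands. Among 33469 RefSeq promoter windows of this length, the D-box pattern TTANNTAA was found in 5.84%, the E′-box CACGTT in 4.83% and the canonical E-box CACGTG in 6.42%. Of the 9 genes, 1 had the D-box pattern and 1 the E′-box, in both cases Per2, and 0 had the canonical E-box within this window. In mouse, an E′-box near the Per2 start is known to carry much of that gene's rhythm. The half-site AGGTCA, bound by many nuclear receptors including those of Nr1d1 and Nr1d2, was found in 16.2% of all windows and in 2 of the 9, Usp2 and Nr1d2. The antioxidant response core TGACNNNGC, bound by Nrf2, was in 12.1% of all windows and in 2 of the 9; its match in Per2 overlaps the E′-box and its match in Usp2 overlaps the half-site. The GCGTG core of the aryl hydrocarbon receptor was in 29.7% of all windows and in 4 of the 9 genes, Dbp, Noct, Per3 and Npas2. The heat shock core GAANNTTC (8.59% of windows) and the cAMP response element TGACGTCA (1.83%) were in 0 of the 9.

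Before the results, the arrays were checked against their labels. Correlations between arrays ran from 0.930 to 0.992 over the 12947 kept probe sets. The array labelled D3T 5 had a higher mean r with OLT arrays (0.979) than with the rest of its own diet (0.968). For the array labelled OLT 1 the mean r was 0.966 with D3T arrays and 0.963 with the rest of OLT. The array labelled OLT 5 had 0.965 with the rest of OLT, 0.968 with BNF and 0.970 with control, and OLT 4 had 0.975 with both OLT and control. Akr7a3, an aldehyde reductase induced by dithiolethiones, likewise read 11.35 in D3T 5 against 13.82 to 14.29 in the other D3T arrays. It read 14.33 in OLT 1 against 10.68 to 11.45 in the other OLT arrays. OLT 4 and OLT 5 read Akr7a3 within that OLT range. For the 10 genes, the differences that D3T 5 and OLT 1 moved most are given with and without these 2 arrays, and each array was also left out alone. Cyp1a1, the aryl hydrocarbon receptor's best known target, read 13.50 to 13.77 in the 5 BNF arrays and at most 10.28 elsewhere. It read 8.31 in D3T 5 against 3.97 to 5.76 in the other D3T arrays. In OLT 1 it read 3.97 against 6 to 10.28 in the other OLT arrays. Nqo1, a further check gene, read 9.84 in D3T 5 against 10.96 to 11.51 in the other D3T arrays. In OLT 1 it read 11.1 against 8.82 to 9.53 in the other OLT arrays. The mean level of 5 hepatocyte markers (of 6 fixed) lay between 14.60 and 15.06 in all 20 arrays. Among them Apoa1 was higher in BNF than in control (0.78, SE 0.17, limma adjusted p = 0.0126). It was lower in OLT than in BNF (-1.09, SE 0.17, limma adjusted p = 0.000555). The other 4 were not called in these 2 comparisons, and none of the 5 was called in OLT against control.

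**Figure D1:**
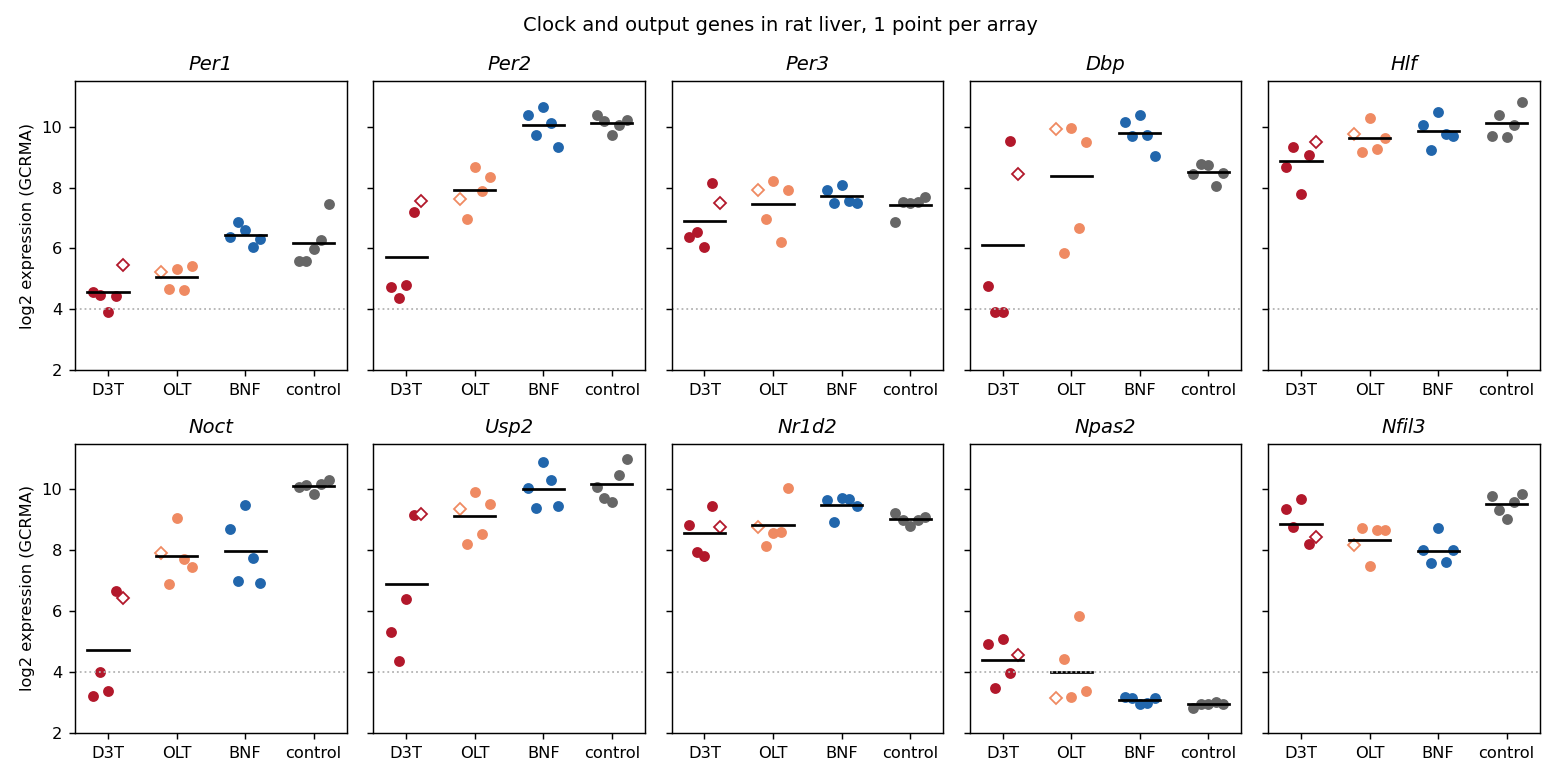
Log2 expression (vertical axis) of the 10 clock and output genes in 5 arrays each of the D3T, OLT, BNF and control diets; each point is 1 array, black lines are diet means, open diamonds are the arrays labelled D3T 5 and OLT 1, and the dotted line at 4 is the filter level. Per2 in OLT lies between 6.98 and 8.69, below all BNF and control arrays, and Dbp spans 3.90 to 9.52 within D3T.

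Per2, a repressor of the core loop, was lower in OLT than in BNF and than in control. It read 4.73, 4.37, 4.79, 7.19 and 7.55 in D3T arrays 1 to 5, and 7.63, 6.98, 8.69, 7.90 and 8.35 in OLT arrays 1 to 5. It read 10.40, 9.72, 10.66, 10.13 and 9.33 in BNF arrays and 10.39, 10.19, 9.72, 10.07 and 10.23 in control arrays. No OLT array reached the lowest BNF or control array, and BNF and control overlapped. D3T 1 to 3 lay more than 2 log2 units below D3T 4 and 5. Per2 fell in OLT to a mean of 7.91 ± 0.66, against 10.12 ± 0.25 in control (SD, n = 5 each), a log2 difference of -2.21 (SE 0.51, 4.62-fold lower, limma adjusted p = 0.0142), or -2.14 without the 2 arrays (adjusted p = 0.0137). It was also lower in OLT than in BNF (10.05 ± 0.53), with a difference of -2.14 (SE 0.51, limma adjusted p = 0.0123), or -2.07 without the 2 arrays (adjusted p = 0.0112). In a fit of the OLT and BNF arrays alone its limma adjusted p was 0.00563. Between BNF and control the difference was -0.07 (95% interval -1.15 to 1.01). The D3T mean was 5.73 ± 1.52, or -4.39 from control (-4.85 without the 2 arrays); this is the value for which the gene was chosen. Leaving out any single array kept both OLT calls, with adjusted p from 0.00505 to 0.0426 against control and from 0.00409 to 0.0388 against BNF.

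Per1, the paralogue of Per2 that responds fastest to glucocorticoid and cAMP signals, had lower signal. Its 5 values were 4.56, 4.47, 3.91, 4.45 and 5.45 in D3T, and 5.21, 4.68, 5.34, 4.63 and 5.41 in OLT. They were 6.37, 6.87, 6.60, 6.05 and 6.32 in BNF, and 5.59, 5.59, 5.97, 6.29 and 7.47 in control. All OLT arrays lay below all BNF and all control arrays. Per1 was lower in OLT than in BNF, with a difference of -1.39 (SE 0.32, 2.62-fold, limma adjusted p = 0.00926), with adjusted p from 0.00174 to 0.0283 when any 1 array was left out and 0.00375 in a fit of the OLT and BNF arrays alone. Against control the OLT difference was -1.13 (SE 0.32, limma adjusted p = 0.0408), -1.17 without the 2 arrays (adjusted p = 0.0438). This call was lost in 7 of the 20 fits that each left out 1 array; without control 5, the highest array, the difference was -0.80 (adjusted p = 0.0923; 0.012 to 0.107 over all 31 alternatives). BNF against control gave 0.26 (95% interval -0.41 to 0.93), and the D3T mean lay -1.61 from control (-1.83 without the 2 arrays).

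Per3, the third paralogue, is not required for rhythms in mouse. It differed little between diet means but much within the dithiolethione diets. It read 6.37, 6.53, 6.06, 8.15 and 7.48 in D3T, and 7.92, 6.98, 8.22, 6.22 and 7.92 in OLT. The BNF arrays lay between 7.49 and 8.08 and the control arrays between 6.87 and 7.68. OLT and control overlapped, with a difference of 0.04 (95% interval -0.75 to 0.82), as did BNF and control (0.30, interval -0.49 to 1.08) and OLT and BNF (-0.26, interval -1.05 to 0.53). The sign of the OLT difference from control turned without the 2 arrays (-0.08). The D3T difference was -0.50, or -0.64 without them.

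**Figure D2:**
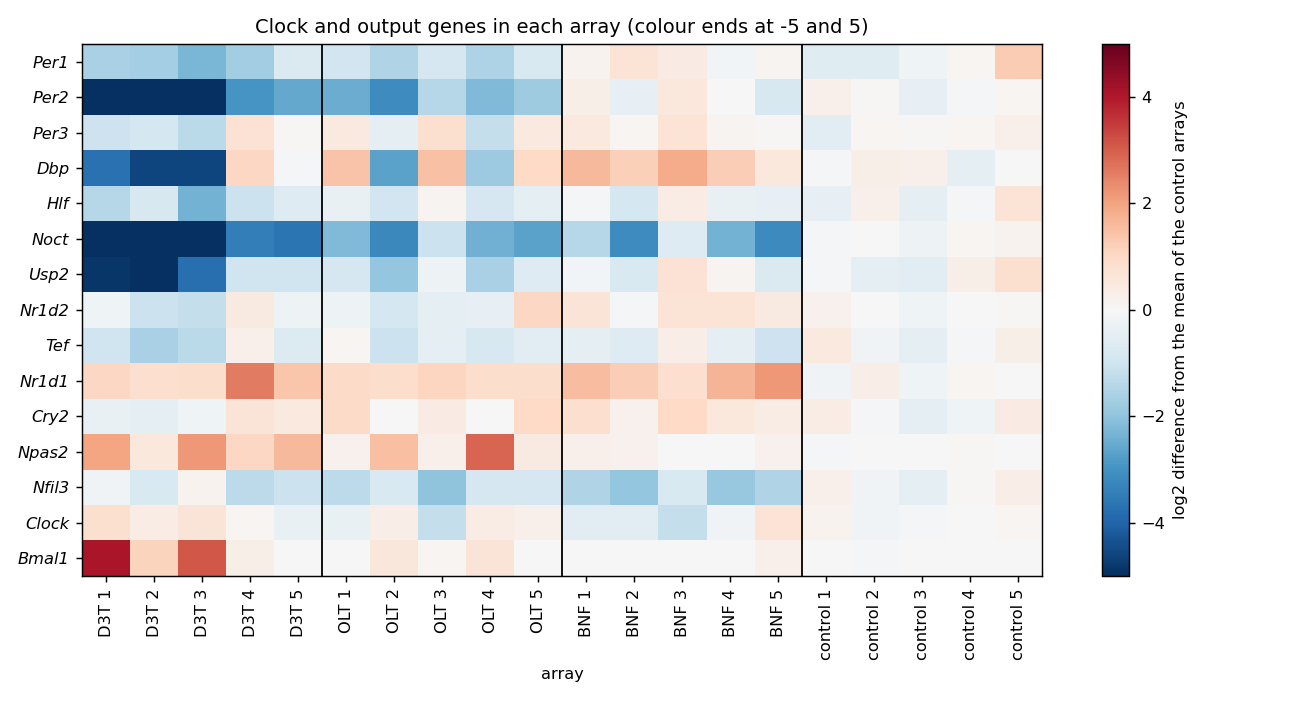
Log2 difference of each array (columns, grouped by diet) from the mean of the 5 control arrays for the 10 genes and for Tef, Nr1d1, Cry2, Clock and Bmal1 (rows); blue is lower, red is higher, and colours end at -5 and 5. D3T 1 to 3 are lower in Dbp and Usp2 than D3T 4 and 5, and Bmal1, which has no probe set past the filter, reads 6.89 in D3T 1.

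Dbp, the D-box activator and a direct BMAL1 target, varied most within a diet. It read 4.76, 3.91, 3.90, 9.52 and 8.44 in D3T arrays 1 to 5, and 9.91, 5.84, 9.95, 6.67 and 9.49 in OLT arrays 1 to 5. In BNF it read 10.14, 9.71, 10.37, 9.73 and 9.04, and in control 8.45, 8.78, 8.75, 8.06 and 8.47. Within D3T, arrays 1 to 3 were at or near the filter level while array 4 exceeded every control array; within OLT, arrays 2 and 4 were low and the others exceeded every control array. The SD was 2.67 in D3T and 1.96 in OLT, against 0.51 in BNF and 0.29 in control (n = 5 each). Every BNF array lay above every control array, with a difference of 1.30 (SE 0.98, 95% interval -0.76 to 3.35, limma adjusted p = 0.606). That SE rests on the spread shared by all 4 diets; in a fit of the BNF and control arrays alone the same difference had a limma adjusted p of 0.0167, and over all 31 alternatives it ran from 0.0167 to 1.0. OLT gave -0.13 against control (interval -2.19 to 1.93) and -1.42 against BNF (interval -3.48 to 0.63). The size of the OLT differences depended on single arrays. Against control OLT gave 0.50 without OLT 2, 0.30 without OLT 4, -0.51 without D3T 5 and OLT 1, and -1.41 with array weights, and it was not called in any of these. Against BNF it gave -1.81 without D3T 5 and OLT 1, and -2.80 with array weights, where it was called (limma adjusted p = 0.0194; 0.0194 to 0.679 over all 31 alternatives). The D3T mean lay -2.40 from control, or -2.98 without the 2 arrays.

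Hlf, a second D-box activator, had 3 kept probe sets. The brightest read 8.69, 9.33, 7.78, 9.07 and 9.49 in D3T and 9.76, 9.16, 10.27, 9.27 and 9.64 in OLT. It read 10.07, 9.23, 10.48, 9.76 and 9.71 in BNF and 9.70, 10.39, 9.67, 10.07 and 10.81 in control. By this probe set every D3T array lay below every control array (difference -1.26, or -1.41 without D3T 5 and OLT 1), and all other pairs of diets overlapped. OLT gave -0.51 against control (95% interval -1.16 to 0.14) and BNF gave -0.28 (interval -0.93 to 0.37). The other 2 probe sets gave -0.68 and -0.47 for OLT against control and were not called either (adjusted p = 0.145 and 0.618, limma). Their D3T differences from control were -0.81 and -1.32, and by both D3T and control overlapped. D3T read up to 8.51 and 7.36, against control from 8.29 and 6.87.

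Nfil3, the repressor at the same D-boxes, was highest in control. It read 9.34, 8.76, 9.67, 8.20 and 8.42 in D3T and 8.18, 8.73, 7.48, 8.68 and 8.67 in OLT. It read 8.0, 7.58, 8.74, 7.62 and 8.01 in BNF and 9.77, 9.33, 9.03, 9.57 and 9.84 in control. Both OLT and BNF lay wholly below control. Nfil3 fell in BNF by 1.52 on the log2 scale (SE 0.30, 2.86-fold lower, limma adjusted p = 0.00679), and leaving out any 1 array gave adjusted p from 0.0025 to 0.0227. In OLT it fell by 1.16 (SE 0.30, limma adjusted p = 0.0247). The OLT call was lost without the 2 arrays (-1.12, adjusted p = 0.0576) and in 5 of the 20 fits that each left out 1 array (0.0172 to 0.0679 over all 31 alternatives). OLT and BNF overlapped, with a difference of 0.36 (95% interval -0.26 to 0.98). The D3T mean lay -0.63 from control (-0.52 without the 2 arrays) and the groups overlapped.

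Nr1d2, the haem-binding repressor REV-ERBβ, had 2 kept probe sets, and neither was called in the 3 comparisons tested. The brighter read 8.82, 7.93, 7.82, 9.47 and 8.78 in D3T and 8.77, 8.13, 8.56, 8.61 and 10.05 in OLT. Its BNF values lay between 8.93 and 9.71 and its control values between 8.81 and 9.22. Differences were -0.19 for OLT against control (95% interval -0.86 to 0.47), 0.47 for BNF against control (interval -0.19 to 1.13) and -0.66 for OLT against BNF (interval -1.33 to 0.00). Without OLT 5, the highest OLT array, OLT was called lower than BNF by the brighter probe set (-0.97, limma adjusted p = 0.0242; 0.00499 to 0.459 over all 31 alternatives). The second probe set, with all arrays, gave -0.07 for OLT against BNF (limma adjusted p = 0.926). It gave 0.11 for OLT against control, the opposite sign to the brighter. The D3T difference was -0.45, and -0.29 by the second probe set.

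Npas2, the activator that can replace CLOCK as BMAL1's partner, read 4.92, 3.46, 5.09, 3.97 and 4.56 in D3T and 3.16, 4.43, 3.19, 5.85 and 3.38 in OLT. It lay at the background level in BNF (2.96 to 3.18) and control (2.83 to 3.01). It passed the filter with exactly 5 arrays above 4, all of them D3T or OLT arrays, so that its presence among the tested genes depends on those diets. Every D3T and every OLT array exceeded every control array. OLT against control gave 1.07 (SE 0.39, limma adjusted p = 0.115) and OLT against BNF 0.92 (adjusted p = 0.16). Without D3T 5 and OLT 1 they were 1.27 and 1.12, not called. With array weights both were called, at 1.43 (adjusted p = 0.00452; 0.00452 to 0.257 over 30 alternatives) and 1.34 (adjusted p = 0.00585; 0.00585 to 0.334). The D3T mean lay 1.47 above control. Since Npas2 passed the filter through D3T and OLT arrays and lay at background in BNF and control, nothing is read from these differences or calls. Within OLT the 2 highest arrays, 4 and 2, were the 2 lowest for Dbp. Within D3T the match was partial. D3T 3, the highest for Npas2 (5.09), had the lowest Dbp (3.90), but D3T 2, the lowest for Npas2 (3.46), read 3.91 for Dbp. Nothing is read from these matches either.

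Noct was the other gene noted for its D3T values. It read 3.21, 3.99, 3.37, 6.67 and 6.44 in D3T and 7.92, 6.89, 9.05, 7.72 and 7.44 in OLT. It read 8.69, 6.98, 9.48, 7.73 and 6.92 in BNF, against 10.07, 10.14, 9.85, 10.19 and 10.30 in control. All 3 supplemented diets lay wholly below control, and D3T 1 to 3 were below the filter level. In OLT Noct fell by 2.30 on the log2 scale (SE 0.64, 4.94-fold lower, limma adjusted p = 0.0368), and by 2.33 without the 2 arrays (adjusted p = 0.0465). That call was lost in 7 of the 20 fits that left out 1 array (adjusted p up to 0.0919). BNF gave -2.15 (SE 0.64, limma adjusted p = 0.0714), which was called in the fit of BNF and control alone (adjusted p = 0.0273; 0.0107 to 0.189 over all 31 alternatives). OLT and BNF overlapped (-0.16, 95% interval -1.49 to 1.18). The D3T difference was -5.37, or -5.80 without the 2 arrays.

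Usp2, an output gene that cycles strongly in liver, had 2 kept probe sets that differed in D3T. The brighter read 5.32, 4.37, 6.39, 9.17 and 9.18 in D3T and 9.34, 8.22, 9.92, 8.55 and 9.52 in OLT. It read 10.05, 9.39, 10.91, 10.31 and 9.45 in BNF and 10.09, 9.71, 9.60, 10.46 and 10.99 in control. D3T 4 and 5 were within the OLT range and D3T 1 to 3 far below it. The dimmer probe set read 4.85, 6.20, 6.36, 6.72 and 6.59 in D3T against 7.21 to 9.18 in control, so that its D3T difference was -1.75 where the brighter gave -3.29 (-3.86 without D3T 5 and OLT 1). Neither probe set was called for OLT against control (-1.06, 95% interval -2.57 to 0.45, and -0.95, interval -1.72 to -0.17; adjusted p = 0.391 and 0.135, limma). BNF against control gave -0.15 (interval -1.66 to 1.36).

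**Figure D3:**
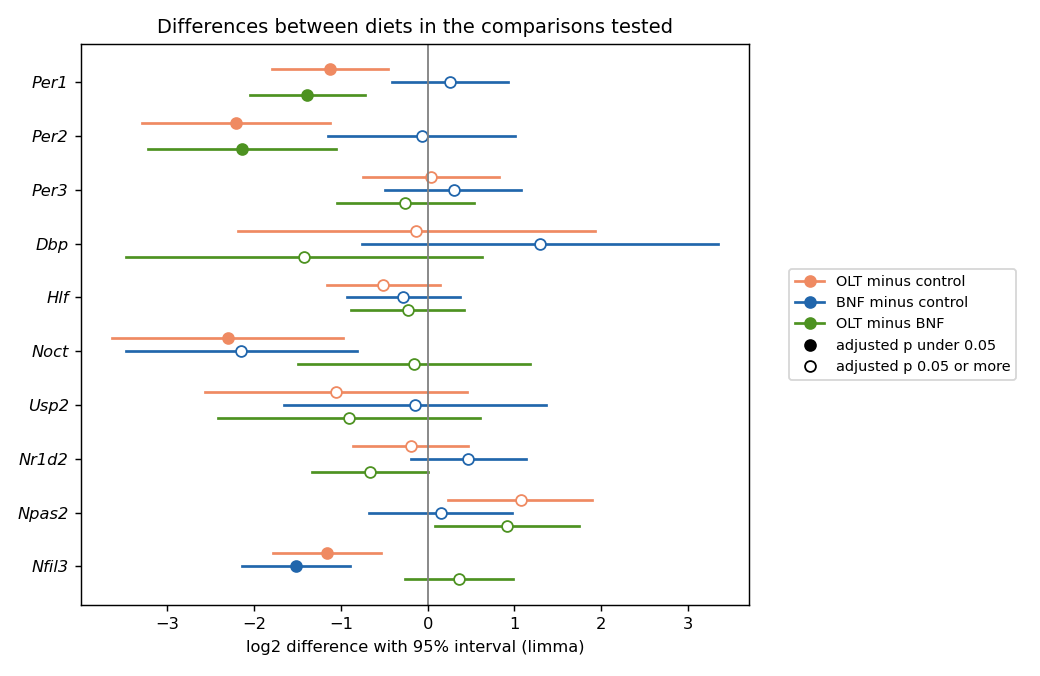
Log2 difference (horizontal axis) with its 95% interval for each of the 10 genes (rows) in OLT minus control, BNF minus control and OLT minus BNF; filled points have a limma adjusted p under 0.05. Per2 is at -2.21 and -2.14 in the OLT comparisons with control and BNF, and Nfil3 at -1.52 in BNF minus control.

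Taking the genes as a group, 4 of 10 were called in OLT against control, all lower (Per1, Per2, Noct and Nfil3), against a background of 7.5% of 7837 genes called in either direction. Per2 and Noct had been noted as low in D3T against the same control arrays, so that this count is not independent of their choice. The count was 3 without the 2 arrays, where the background was 5.44%. It was 1 without control 4, without control 5 or without OLT 1, and 2 without control 1, OLT 2, OLT 3 or OLT 4. The median difference of the 10 was -0.78, against -0.05 over all genes, and 8 of the 10 differences were negative. In BNF against control 1 of 10 was called (Nfil3, lower), where the background was 4.17%; the median was 0.04 against -0.06 over all genes, and 5 differences were negative. In OLT against BNF 2 of 10 were called, Per1 and Per2, both lower in OLT. The background there was 11.7%, and the median was -0.46 against 0.01 over all genes. In D3T against control 6 of 10 passed the same rule, 5 lower and 1 higher (Npas2), beside a background of 13.1%; since that contrast chose members, and Npas2 passed the filter through D3T and OLT arrays, nothing is read from the count. Without the 2 arrays the counts were 1 in BNF against control, 2 in OLT against BNF and 6 in D3T against control, beside backgrounds of 5.16%, 9.75% and 15%. Groups did not overlap for 5 of 10 genes in OLT against control (7.62% of all genes), 3 of 10 in BNF against control (7.73%) and 2 of 10 in OLT against BNF (9.91%). Per2 and Noct, noted against the same control arrays, are among the 5 in OLT against control, and Noct is among the 3 in BNF against control. The 5 also include Npas2, which passed the filter through D3T and OLT arrays. It had 3 of its 5 OLT values below the filter level, near the control values. In D3T against control the groups did not overlap for 6 of 10 (11.8%). Hlf is among them, and among the 6 past the rule in that contrast, by its brightest probe set only. D3T and OLT were fed at different doses and were not tested against each other.

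The genes differed in the order of their diet means. Control had the highest mean for 5 genes, BNF for 4 and D3T for 1 (Npas2). The spread within a diet was larger in the supplemented diets than in control, for 9 of 10 genes in D3T, 8 in OLT and 7 in BNF. The median SD over the 10 genes was 0.78 in D3T, 0.72 in OLT and 0.46 in BNF, against 0.30 in control. Over all 7837 genes the median SD was 0.25, 0.29 and 0.20 in D3T, OLT and BNF, against 0.23 in control. Npas2 is counted in all 3 diets, with SDs of 0.68, 1.16 and 0.11 against 0.07 in control. It passed the filter through D3T and OLT arrays and lay at background in BNF and control. Per2 and Noct had been noted for their D3T values. The share of all genes with a larger SD than control was not counted, so that nothing is read from the 3 counts.

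Since the arrays of one diet differed so much, it was asked whether the genes deviated together within diets, a question that differences between diet means do not enter. The D3T arrays, whose split raised the question and in which Per2 and Noct were noted, are among those used. The p-values are therefore not independent of what had been seen. Each diet's mean was subtracted, and the deviations of Per2 were set against those of 13 other clock genes that had a kept probe set, over 20 arrays. Permutation tests shuffled arrays within diets, and p-values were adjusted over the 13 relations. Usp2 followed Per2 most closely (Pearson r = 0.923, Spearman rho = 0.892, adjusted p = 0.00052 for each), then Noct (r = 0.898, rho = 0.845, adjusted p = 0.00162 and 0.00368) and Dbp (r = 0.856, rho = 0.833, adjusted p = 0.0116 and 0.00445). Each gene stands here by its brightest kept probe set. The dimmer Usp2 probe set split less within D3T (4.85, 6.20, 6.36, 6.72 and 6.59 in arrays 1 to 5). Its relation with Per2 was not tested. Tef (r = 0.705, rho = 0.792, adjusted p = 0.0116 and 0.0013) and Per3 (r = 0.692, rho = 0.753, adjusted p = 0.039 and 0.0135) followed it as well. Without D3T 5 and OLT 1 the Per3 relation was not called by r (r = 0.740, adjusted p = 0.0602) and that of Nr1d2 was (r = 0.680, adjusted p = 0.0377, by permutation). Clock, BMAL1's partner, ran the other way (r = -0.611, rho = -0.564, adjusted p = 0.0116 and 0.05) by the brighter of its kept probe sets. A dimmer one, near the filter level, read 4.35, 4.16, 4.59, 4.54 and 5.06 in D3T arrays 1 to 5. Like Per2 it was highest in D3T 5, and its relation with Per2 was not tested.

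The remaining 7 relations were not called by r: Nr1d2 (r = 0.615), Hlf (r = 0.515, but adjusted p = 0.0273 by rho), Nr1d1 (0.426), Per1 (0.385), Cry1 (0.309), Npas2 (-0.153) and Nfil3 (-0.409). Across all other kept probe sets, r with Per2 had a median of -0.005 and ran from -0.452 at the 5th to 0.442 at the 95th percentile; 0.1% of them reached 0.8, as Usp2, Noct and Dbp did. The 2 arrays farthest from the Per2 median were D3T 4 and D3T 5. Without them r was 0.856 for Usp2, 0.837 for Noct, 0.773 for Dbp, 0.687 for Tef, 0.573 for Per3 and -0.577 for Clock. Without all 5 D3T arrays, a choice made after the data were seen, 2 of the 13 relations were called, those of Noct (r = 0.816, adjusted p = 0.019 by permutation) and Usp2 (r = 0.774, adjusted p = 0.019). Dbp then had r = 0.634 (adjusted p = 0.151), Tef 0.620 (0.0872), Per3 0.451 (0.331) and Clock -0.634 (0.143), by permutation. Their calls were thus made only with the D3T arrays included. With log2 deviations replaced by ranks within each diet, the relations of Usp2, Tef, Noct and Nr1d2 were called and those of Dbp, Per3 and Clock were not (adjusted p = 0.0715, 0.0715 and 0.336 by permutation). The Clock relation was also lost after centring the arrays (r = -0.479, adjusted p = 0.0564). Among the 8 genes other than Npas2 and Nfil3, all 28 pairs had a positive r within diets, with a median of 0.605. Every pair of Npas2 or Nfil3 with one of these 8 had a negative r, from -0.686 (Per3 and Npas2) to -0.074 (Nr1d2 and Nfil3). The count of 28 thus depends on leaving these 2 genes out. The share of positive pairs over all genes was not computed, and nothing is read from the count.

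**Figure D4:**
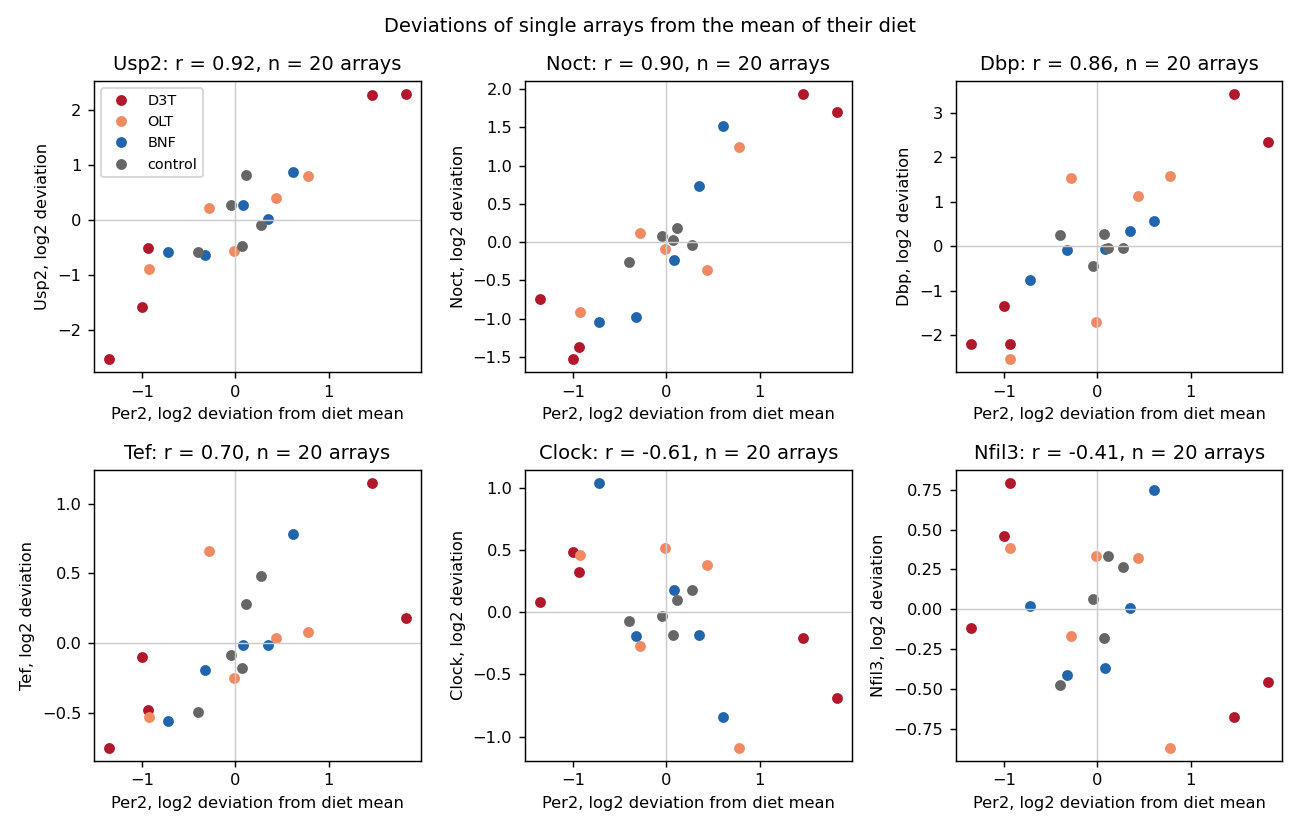
Deviation of each array from its diet mean, in log2 units, for Per2 (horizontal axes) against Usp2, Noct, Dbp, Tef, Clock and Nfil3 (vertical axes); each point is 1 of 20 arrays, coloured by diet. Usp2 rises with Per2 (r = 0.92), Clock runs the other way (r = -0.61), and D3T 4 and 5 are the 2 points at the far right. Each gene is shown by its brightest kept probe set.

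Bmal1, the partner of CLOCK and NPAS2, had a single probe set, which did not pass the filter and was not tested. It read 6.89, 3.92, 5.90, 3.10 and 2.82 in D3T arrays 1 to 5 and 2.81 to 3.45 in OLT, against 2.80 to 3.06 in BNF and 2.75 to 2.82 in control. Its 3 highest arrays were D3T 1, 3 and 2, the arrays with the lowest Per2, Noct and Usp2. The highest OLT arrays for Bmal1, 4 and 2, were those with the lowest Dbp, though all OLT values were below the filter level. Bmal1 was looked at because it is on the list of core clock genes, after the split within D3T had been seen.

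Of 18 further core clock genes, 9 had a kept probe set. In OLT against control 1 was called, Nr1d1, the REV-ERBα repressor, which rose by 0.94 (SE 0.27, limma adjusted p = 0.0466), and the list's median was -0.04, against -0.05 over all genes. In BNF against control 2 were called. Nr1d1 read 7.62, 7.31, 6.90, 7.78 and 8.24 in BNF against 5.84 to 6.38 in control, and rose by 1.51 (SE 0.27, limma adjusted p = 0.00383). The other was Bhlhe41, the E-box repressor DEC2, with 3.99 to 6.05 in BNF against 2.57 to 2.63 in control. It was also called in OLT against BNF, with 2.57 to 3.50 in OLT. Bhlhe41 passed the filter through 4 BNF arrays and D3T 4, and its OLT and control values are at background, so that no size is given for its differences and nothing is read from its calls. The other genes of the list, Clock, Cry1, Cry2, Rora, Bhlhe40, Tef and Csnk1d, were not called in these 3 comparisons. Without the 2 arrays Nr1d1 was not called in OLT by limma. Both Nr1d1 and Nr1d2 are BMAL1 targets, yet every control array of Nr1d1 lay below every array of the other diets, whereas the arrays of Nr1d2 overlapped.

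Of 9 measured liver genes known to be clock-controlled (11 listed), 3 fell in OLT against control and 6 were not called by limma. Nampt, the rate-limiting enzyme of NAD salvage, fell by 1.64 (SE 0.36, limma adjusted p = 0.00968), Gys2, liver glycogen synthase, by 1.20 (SE 0.27, adjusted p = 0.0112) and Por, the electron donor of cytochromes P450, by 1.14 (SE 0.22, adjusted p = 0.00406). The list's median was -0.34, against -0.05 over all genes. In BNF against control none of the 9 was called by limma (median -0.37), and in OLT against BNF 2 were lower in OLT, Gys2 (difference -2.01, SE 0.27) and Por (-0.76, SE 0.22).

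Genes that respond to hormones, temperature and feeding, all known inputs to the liver clock, were looked at beside it. Of 9 measured genes that respond to glucocorticoids, 3 fell in OLT against control (Tsc22d3, Fkbp5 and Dusp1; median -0.19) and 9 were not called in BNF; without the 2 arrays 2 fell in OLT. Tsc22d3, the glucocorticoid-induced leucine zipper, read 9.02 to 9.23 in D3T, 8.84 to 9.31 in OLT and 10.07 to 11.03 in BNF, against 10.62 to 11.57 in control, and fell in OLT by 1.83 (SE 0.18, limma adjusted p = 8.61e-06). Unlike Per2, it did not split within D3T. Fkbp5, another glucocorticoid target, fell in OLT by 1.39 (SE 0.28), and Igfbp1, which responds to insulin and glucocorticoids, was higher in OLT than in BNF by 2.09 (SE 0.51). Of 12 measured genes that respond to temperature, 5 fell in OLT against control (Hspa1a, Dnajb1, Dnaja1, Bag3 and Hspb1; 4 without the 2 arrays) and 1 in BNF (Hspb1), with medians of -0.36 and -0.21. Most are heat shock genes of the cytosol, but the list also holds the mitochondrial chaperones Hspd1 and Hspe1 and the cold-inducible Cirbp and Rbm3. Hspa1a, the inducible chaperone, read 3.65 to 6.52 in D3T, 3.86 to 6.55 in OLT and 8.51 to 10.63 in BNF, against 9.14 to 10.84 in control, and fell in OLT by 4.99 (SE 0.56, limma adjusted p = 5.36e-05). Its co-chaperones Dnajb1 and Bag3 fell in OLT by 1.61 (SE 0.16) and 1.65 (SE 0.23).

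Of 10 measured genes of fasting and feeding, 1 rose and 1 fell in OLT against control (median 0.48), and 2 fell in BNF (median -0.75). Cpt1a, which admits fatty acids to mitochondria, fell in OLT by 2.00 (SE 0.28) and gave -0.03 in BNF. Srebf1, the regulator of fatty acid synthesis, rose in OLT by 1.09 (SE 0.19) and fell in BNF by 0.70 (SE 0.19), and Fasn, fatty acid synthase, fell in BNF by 1.41 (SE 0.35). Of 6 immediate early genes measured, 2 fell in OLT, Jun by 2.17 (SE 0.28) and Ier3 by 0.72 (SE 0.21), and 1 rose in BNF (Junb, by 1.56, SE 0.33). The part of these genes, and of feeding state, in the levels of the clock genes was not tested.

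Markers of other cell types moved with the diets too. The mean level of 9 macrophage markers was 6.59 to 8.18 in OLT and 8.08 to 9.15 in BNF, against 7.49 to 8.18 in control; 1 fell in OLT (Cd163, not called without the 2 arrays) and 1 rose in BNF (Tyrobp). Of the 9, 8 were lower in OLT than in BNF. Of 6 stellate cell markers 4 rose in BNF (Col1a1, Col1a2, Col3a1 and Dcn) and none was called in OLT against control. Both measured erythrocyte markers, Hbb and Alas2, rose in OLT, by 1.10 and 1.84 (1 of 2 without the 2 arrays). None of 4 endothelial markers was called by limma in the 3 comparisons, and of 3 lymphocyte markers 1 rose in BNF (Cd74). Of 4 cholangiocyte markers 1 passed the filter, and it was not called. Their part in the results for the clock genes was not tested.

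As a description of likeness, the genes outside the set whose levels followed each of 4 members most closely over the 20 arrays were ranked by Pearson's r. For Per2 they were Cpt1a (r = 0.938), Spsb4 (0.936) and Ifrd1 (0.931), and for Noct they were Slc25a25 (0.936), Spsb4 (0.902) and Por (0.893). For Dbp they were Gpr146 (0.777), Dbndd2 (0.753) and Tns2 (0.749), and for Npas2 they were Pias4 (0.864), Rab11b (0.815) and Nme1 (0.814). These values include the differences between diets, which all genes on the same arrays share.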

How the data were processed

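Liver RNA of 20 rats was measured on 1-colour arrays. The deposited values are log2 summaries per probe set that the authors made with GCRMA, per the submitters' processing notes; its version is not given in the sources used here. Values between 0.083 and 16.46 were used unchanged. Platform annotation, updated by gene identifier, gave 1 gene to 20826 probe sets, several to 436 and none to 9780. Of 31042 probe sets, 12947 had 5 or more arrays over 4 and were kept. Where a gene had several, the brightest on average stands for it. Tests were made with limma 3.58.1 in R 4.3.3 (lmFit, eBayes with trend, two-sided). A single model held the 20 arrays, and p was adjusted by Benjamini-Hochberg over kept probe sets; a call is an adjusted p under 0.05. A limma p sets a difference between diet means against the spread of arrays within diets, pooled over the diets in the fit. Relations within diets used 100000 permutations. The limma test and the estimate of r within diets were checked on simulated data. The permutation p-values were not.

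The members and lists were chosen with earlier results of these data known. Genes were named by rule: all members, up to 3 called genes per list (smallest adjusted p), the 3 genes most like Per2, Noct, Dbp and Npas2, and Akr7a3, Cyp1a1 and Nqo1 as checks. Further called genes were named after their values were seen, to spell out small counts. No scan dates or other batches are given in the sources used here. Deviations of same-numbered arrays had correlations from -0.272 to 0.297 (median 0.057, 30 pairs). These values cannot settle whether the number pairs rats, since a shared effect on few genes would hardly move them. Alternatives were other scalings, filters, variance priors, array weights, fits of only the diets compared, a replicate block, averaged probe sets, and arrays left out; leaving out the D3T arrays from the relations was chosen after seeing the data.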

Additional observations from a re-analysis of the deposited data

Results flagged for a closer look

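Among 40 sets of 5 arrays (10 genes in 4 diets), 1 array stood far from the others of its diet. Per3 read 6.87 in control 1, against 7.49 to 7.68 in the other 4 control arrays. Chance alone puts about 1 in 20 such sets past this limit.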

How the results depend on the processing

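The calls of Per2 (OLT against control and against BNF), of Per1 (OLT against BNF) and of Nfil3 (BNF against control) were kept under all 11 alternatives and in all 20 fits that left out 1 array. The number of the 10 genes called in OLT against control was 1 with no filter on dim probe sets, where 31042 probe sets are adjusted for, and 1 to 4 with 1 array left out. In BNF against control it was 2 with array weights, 3 in a fit of only the 2 groups, and 1 to 2 with 1 array left out. In OLT against BNF it was 5 with array weights, and 2 to 3 with 1 array left out. The 5 include Npas2, from whose calls nothing is read. For D3T against control 5 to 7 passed the rule with 1 array left out. With the replicate number as a block, 4, 1 and 2 genes were called in OLT against control, BNF against control and OLT against BNF, and 6 passed the rule in D3T against control, as without it. Differences that changed sign were uncalled: Per3 in OLT against control gave -0.03 after centring on the median, -0.39 with array weights and -0.08 without the arrays labelled D3T 5 and OLT 1; Per2 in BNF against control gave 0.01 after quantile normalization and 0.07 with array weights, and Usp2 gave 0.11 there with array weights. With 1 array left out, OLT against control ran from -0.15 to 0.34 for Per3 and from -0.52 to 0.50 for Dbp, BNF against control from -0.22 to 0.11 for Per2 and from -0.37 to 0.06 for Usp2, and OLT against BNF from -0.47 to 0.22 for Noct and from -0.45 to 0.05 for Per3. Of the within-diet relations, 6 were called as reported and 2 without the D3T arrays, where Nfil3 gave r = 0.001 and Nr1d1 r = -0.297; by within-diet ranks Nfil3 gave r = 0.0. Over all kept probe sets, 826, 450, 1246 and 1502 were called in OLT against control, BNF against control, OLT against BNF and D3T against control. Array weights gave 2054, 1480, 2767 and 2885; no filter gave 457 and 974 for OLT and D3T against control, only the 2 groups 382 for OLT against control, and centring 299 for BNF against control. With 1 array left out these counts ran over 523 to 1310, 263 to 508, 777 to 1675 and 969 to 1673. The causes were not tested. The median of kept probe sets lay -0.146, -0.167 and -0.067 from control in D3T, OLT and BNF as deposited. Values under about 4 lie at background, which limits Npas2, Bmal1, Bhlhe41 and the lowest D3T values of Dbp and Noct. The filter at 6 leaves Npas2 out.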
